A study of Homo sapiens with 68 samples.

Results

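The cells described here are A673 Ewing sarcoma cells cultured for 3 days with doxorubicin at 59.88 nM, the dose that the labels call the EC50, and compared with A673 cells cultured for the same time with the DMSO vehicle. The arrays were chosen by their labels: doxorubicin replicates 1, 2 and 3 and vehicle replicates 1, 2, 4, 5 and 6, which makes 8 of the 68 arrays of the series. The rest hold cells of the other drugs, doses and times, and those that enter a comparison below are doxorubicin at 119.76 nM on day 3 (n = 3), ARA-C at 0.17 µM on day 3 (n = 3), puromycin at 0.09 µM on day 3 (n = 3), and doxorubicin at 59.88 nM with its vehicle at 24 h (n = 3 and 6) and on day 5 (n = 3 and 6). A673 is 1 established human line that carries the EWS/FLI translocation, and every group shares that line, its serum-containing medium and the array plate. The replicates are labelled as biological, but whether they were separate cultures is not stated, so the p-values measure the spread between these samples. Extracted RNA was converted to cRNA and hybridised to Affymetrix high-throughput expression arrays, on which each probe set reports the signal of a transcript.

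Doxorubicin is an anthracycline that slips between DNA bases and traps topoisomerase II on cut DNA, which leaves double-strand breaks, and it can also displace histones from chromatin. Cells with broken DNA switch on checkpoint kinases and, where p53 works, p53 target genes such as CDKN1A; A673 cells are known to lack functional p53. Ewing sarcoma is driven by EWS/FLI, a fusion of an RNA-binding protein with an ETS transcription factor, which raises some genes and represses many others, among them genes of matrix and adhesion. The study asked whether doxorubicin, as another agent that kills these cells, moves the genes that change when EWS/FLI is removed.

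The 3 doxorubicin arrays stood together and apart from the vehicle arrays. Pearson correlations of log2 signals over the 22215 probe sets tested were 0.982 to 0.984 among the doxorubicin arrays, 0.982 to 0.987 among the vehicle arrays and 0.961 to 0.967 between the groups. In the limma fit of all groups, 4473 of 22215 probe sets passed an adjusted p of 0.05, or 20.1% (9.03% higher with doxorubicin and 11.1% lower). Taken per gene, with the brightest probe set of each of 11882 genes, 24.8% changed: 1370 genes (11.5%) were higher and 1571 (13.2%) lower, and in 1299 and 1509 of these the groups did not overlap. More genes fell than rose, a balance that turned with quantile normalization (1686 higher and 1526 lower), and the rises were larger. Of the genes that passed, 225 rose and 33 fell at least 4-fold, and over the probe sets that passed the median rise was 1.15 and the median fall -0.79 on the log2 scale. With only the vehicle arrays from the part of the plate that held the doxorubicin arrays (replicates 1 and 2), 3235 probe sets passed. A sign of RNA quality moved with the groups. The log2 ratio of the 3′ over the 5′ probe set of ACTB, which grows as RNA is broken, was 1.13 ± 0.459 with doxorubicin (SD, n = 3) and 0.533 ± 0.210 with vehicle (SD, n = 5), a difference of 0.594 that did not pass a two-sided exact permutation test (p = 0.0714, where the smallest possible p is 0.0357). For GAPDH the difference was 0.225 (two-sided exact permutation p = 0.0714). The part of this in the changes below was not tested.

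Genes of the core histones, the proteins around which DNA is wound, were among the strongest rises. The set used here holds the 63 measured genes whose symbols name a histone and was formed after their values had been seen. Of these, 25 were higher with doxorubicin and 10 lower (24 and 5 with vehicle replicates 1 and 2 alone), beside 11.5% and 13.2% of all genes, the background for every gene list against vehicle below. The median change of the 63 was 0.48 on the log2 scale. A shorter histone list of 16 genes, called the histone list below, had a median of 2.11. Its lowest change was -1.24, so it leaves out the larger falls of H4C3 and H1-10 given below. The rise was most even in H2B: 12 of 15 H2B genes were higher, none was lower, and their median change was 2.11 on the log2 scale. H2BC4 (chr6:26113170-26123926, GRCh38.p14) gave signals of 626, 619.7 and 632 on the doxorubicin arrays and 74.9, 33.8, 51.5, 67.8 and 34.7 on the vehicle arrays. H2BC5 (chr6:26158121-26171349) gave 13123, 11796 and 12975 against 1426, 1395, 1425, 1318 and 1400.2. For both genes every doxorubicin array lay far above every vehicle array, and the rises were 3.65 ± 0.31 (log2 change ± SE, limma adjusted p = 3.75e-14) and 3.18 ± 0.14 (adjusted p = 1.08e-24). H2BC21, which lies outside the large histone cluster at chr1:149884459-149886682, rose 8.18-fold, from 175 ± 25.1 (SD, n = 5) to 1422 ± 115 (SD, n = 3; adjusted p = 6.94e-15).

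The other classes were mixed. Among 16 H2A genes 6 rose, led by H2AC11 (3.75 on the log2 scale), and 3 fell, all of them variant histones: H2AX (-0.67), whose protein marks double-strand breaks once phosphorylated, H2AZ2 (-0.48) and MACROH2A2 (-0.77). The call of H2AZ2 (adjusted p = 0.0291) ended with vehicle replicates 1 and 2 alone, with plate part as a block and without any 1 doxorubicin array or vehicle replicate 1, 4 or 6. Of 13 H3 genes 4 rose, with H3C4 at 3.58, and H3C7, which is dim, fell by 1.78 but did not pass with a floor of 32 or of 1 under the signals. In H4, 2 of 12 genes rose and 2 fell. H4C8 (chr6:26285126-26285534) had the largest rise of the family, from signals of 62.8, 46.1, 57.4, 97.5 and 66.2 with vehicle to 1059.9, 1413 and 807 with doxorubicin (4.06 ± 0.42, adjusted p = 5.03e-11). H4C3 (chr6:26103933-26104337) went the other way, from 5277, 2197, 5772, 3458 and 3589 to 513, 507 and 536 (-2.89 ± 0.31, adjusted p = 1.63e-10), with no overlap of the groups in either gene. Of the linker histones 4 of 7 H1 genes were lower, H1-10 the furthest (-1.92), and H1-6 was higher (2.24, or 1.21 with a floor of 32). With vehicle replicates 1 and 2 alone H1-10 was the only H1 gene lower, since H1-2 (-0.83), H1-3 (-1.62, adjusted p = 0.0323) and H1-4 (-1.24, adjusted p = 0.0492) did not pass. Histone genes have near-identical copies, and several of these probe sets are of the kind that can bind related transcripts, so the value of a single copy is uncertain. Most histone transcripts of dividing cells lack a poly(A) tail, and how cDNA was primed is not given in the sources used here.

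**Figure D1:**
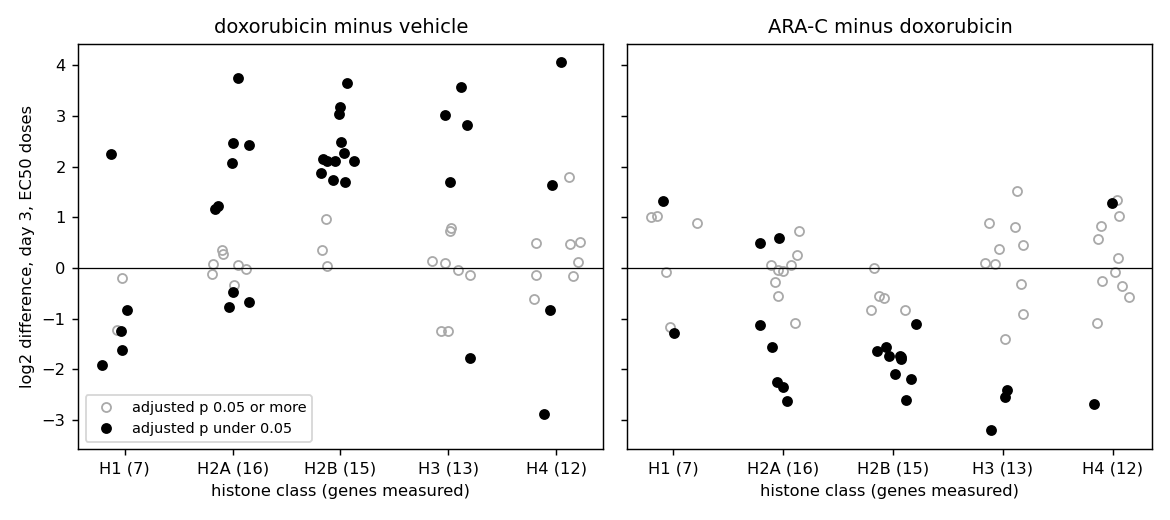
Log2 differences of the 63 histone genes by class on day 3 (each point 1 gene; filled points have an adjusted p under 0.05): doxorubicin minus vehicle on the left and ARA-C minus doxorubicin on the right. On the left 12 of 15 H2B genes lie above 0 as filled points, and on the right 10 of 15 lie below 0.

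The promoters of 2 risen H2B genes and of H4C8 are shown because they share the rise and differ in these letters. The sequences are the 250 bases before the start site from RefSeq (GRCh38.p14), all on the minus strand: H2BC4 at chr6:26123927-26124176, H2BC21 at chr1:149886683-149886932 and H4C8 at chr6:26285535-26285784. Capitals mark the octamer ATTTGCAT and the CCAAT box (CCAAT), each searched on both strands.
H2BC4: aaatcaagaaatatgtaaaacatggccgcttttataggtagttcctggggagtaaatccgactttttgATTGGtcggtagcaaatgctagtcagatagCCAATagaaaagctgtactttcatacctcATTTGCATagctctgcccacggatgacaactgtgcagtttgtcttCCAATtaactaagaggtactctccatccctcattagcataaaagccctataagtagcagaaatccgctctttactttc
H2BC21: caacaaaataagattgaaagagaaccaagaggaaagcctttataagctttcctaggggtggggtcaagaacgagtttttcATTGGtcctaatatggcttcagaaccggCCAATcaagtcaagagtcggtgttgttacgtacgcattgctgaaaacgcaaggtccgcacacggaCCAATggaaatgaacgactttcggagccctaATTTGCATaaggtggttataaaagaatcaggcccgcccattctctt
H4C8: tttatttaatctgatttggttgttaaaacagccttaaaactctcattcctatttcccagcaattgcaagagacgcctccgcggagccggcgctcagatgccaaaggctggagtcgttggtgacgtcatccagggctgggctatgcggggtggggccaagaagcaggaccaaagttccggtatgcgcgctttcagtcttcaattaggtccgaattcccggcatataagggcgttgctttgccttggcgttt
H4C8 held no match to either motif in this window. Over windows of 300 bases (250 before and 50 after the start), the octamer was in 12 of 15 H2B promoters, 7 of 16 H2A, 2 of 11 H3 and none of 10 H4 or 7 H1 promoters, against 1.8% of 27305 promoters. It was in 10 of the 12 H2B genes that rose and in 2 of the 3 that did not pass. The CCAAT box, far more common (35.7% of all promoters), was in all 15 H2B windows. It was not particular to H2B, being in 14 of 16 H2A, 11 of 11 H3, 6 of 7 H1 and 3 of 10 H4 windows.

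The 10 largest rises held H4C8 and 9 genes outside the histones (the plot of the 20 largest changes shows each array). CLDN5, a tight junction protein of endothelial cells (chr22:19523024-19525337), gave 1136, 1244 and 1264 with doxorubicin and 15.9, 23.6, 75.3, 43.8 and 66.3 with vehicle, a 31.7-fold rise (4.99 ± 0.57, limma adjusted p = 4.93e-10). PTX3, a secreted pattern-recognition protein induced in inflammation (chr3:157436850-157443633), went from 52.1 ± 27.1 (SD, n = 5) to 1339 ± 88.7 (SD, n = 3), or 4.84 ± 0.35 (adjusted p = 2.93e-16). IGFBP5, which binds insulin-like growth factors, rose by 4.55 ± 0.37 (adjusted p = 1.08e-14), and 2 more of its 5 probe sets rose with it. TM4SF1, a surface protein of migrating cells, rose by 4.29 and EPAS1, the hypoxia-inducible factor HIF-2α, by 4.19. S100A10, the annexin A2 partner, went from 104 ± 51.2 (SD, n = 5) to 1703 ± 98 (SD, n = 3). ZBTB16, a zinc-finger repressor, rose by 4.12 and the adhesion receptor CEACAM1 by 4.02, the latter with 3 further probe sets of 5. BDNF, a neurotrophin, gave 217, 162 and 181 against 1.39, 13.1, 4.82, 1.3 and 6.78. All but 1 of these vehicle signals lay under the floor of 10 that was set before log2 was taken, so its change of 4.14 depends on that floor (2.53 with a floor of 32 and 5.62 with a floor of 1), though no doxorubicin array came near a vehicle array. The 10 rises, like the 10 falls below, were picked only from genes whose groups did not overlap, so that separation follows from the choice.

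**Figure D2:**
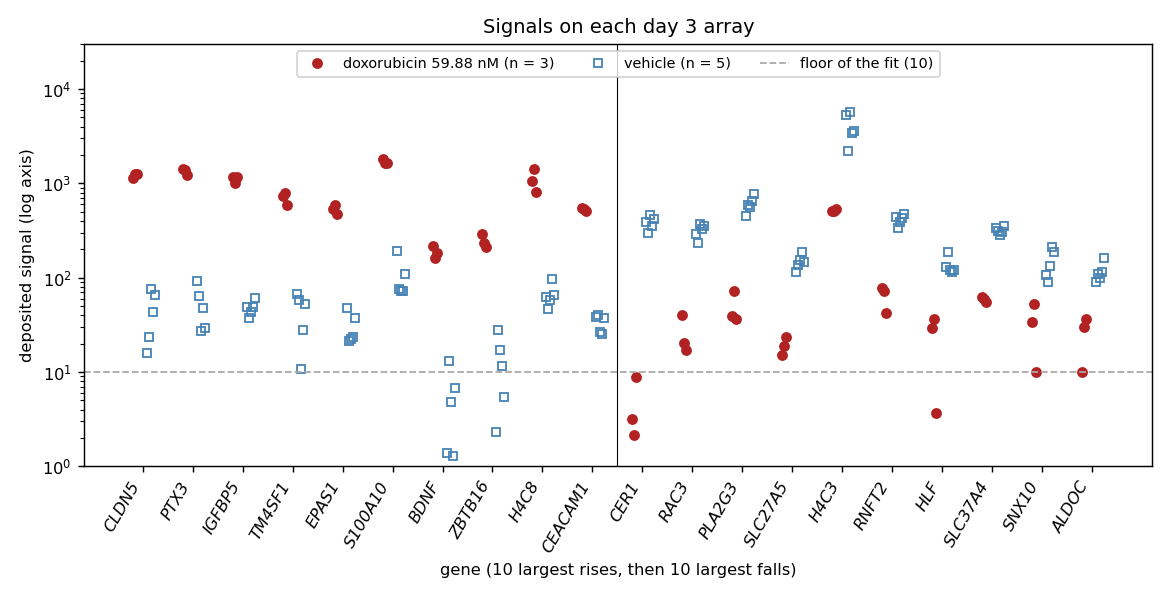
Deposited signals (log axis) of the 10 largest rises, then the 10 largest falls, on each of the 3 doxorubicin arrays (filled circles) and 5 vehicle arrays (open squares), with signals under 1 drawn at 1. In all 20 genes the groups do not overlap, which was a condition of the choice, and CER1 lies under the floor of 10 (dashed line) on every doxorubicin array.

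CER1, a secreted antagonist of nodal and BMP signalling (chr9:14717326-14722733), had the largest fall. Its signals were 393, 297, 463, 353 and 419 with vehicle and 3.16, 2.15 and 8.9 with doxorubicin, all 3 under the floor, where values have no order. The change of -5.25 (adjusted p = 1.22e-13) was -3.57 with a floor of 32 and -6.60 with a floor of 1. RAC3, a small GTPase of the Rac family (chr17:82031678-82034204), fell 12.8-fold, from 316 ± 55.1 (SD, n = 5) to 26.1 ± 12.6 (SD, n = 3; -3.68 ± 0.42, adjusted p = 7.43e-10). PLA2G3, a secreted phospholipase, fell 12.6-fold, from 604 ± 117 to 49.6 ± 19.8. The bile acid ligase and fatty acid transporter SLC27A5 fell by 2.95, the glucose-6-phosphate transporter SLC37A4 by 2.43, the glycolytic aldolase ALDOC by 2.34 and the clock-related bZIP factor HLF by 2.59. RNFT2 (-2.73) and SNX10, a sorting nexin (-2.40), complete the 10 with H4C3. HLF showed 2 and RNFT2 and SLC37A4 1 further probe set lower.

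Genes close to the drug's target and to DNA damage changed in both directions. Among 7 topoisomerase genes measured, TOP2A, the form of topoisomerase II made in dividing cells (chr17:40388525-40417896), rose: 4026, 4426 and 4589.9 with doxorubicin against 2889, 2334, 2688, 2511 and 2261 with vehicle (0.78 ± 0.16, adjusted p = 0.000193). TDP2, which releases topoisomerase II from DNA ends, fell from 2392 ± 162 (SD, n = 5) to 1475 ± 151 (SD, n = 3; adjusted p = 0.0015). TOP2B, the form also made in resting cells, fell by 0.44 (adjusted p = 0.012) but did not pass with vehicle replicates 1 and 2 alone or without doxorubicin replicate 1 or 3. TOP1 stood at 9024 ± 518 and 9099 ± 356 (adjusted p = 1.0). Of 21 p53 target genes 5 rose and 5 fell, so the list as a whole had no direction (median 0.05, against 0 over all genes). CDKN1A, the p21 inhibitor of cyclin-dependent kinases (chr6:36676463-36687332), gave 1594, 1922 and 1726 against 461, 496, 550.0, 500.1 and 609 (1.74 ± 0.18, adjusted p = 2.17e-11), well above every vehicle array. The stress cytokine GDF15 rose by 1.69 and TP53I3 by 1.28, while MDM2, at 92.4 ± 23.2 and 89.7 ± 20.8, was dim and overlapped (adjusted p = 1). BAX, a killer of the BCL2 family, fell from 504 ± 74.3 to 185 ± 44 (-1.46, adjusted p = 0.000306). With plate part as a block 5 of the 21 were higher and 2 lower, and with vehicle replicates 1 and 2 alone 3 and 2. None of 23 genes of break repair and checkpoints rose and 10 fell. NBN and MRE11, partners in the complex that first binds a break, fell by 1.48 and 0.73, and XRCC4 and XRCC5, of end joining, by 1.12 and 0.46. NBN gave 344, 434 and 357 against 1203, 1072, 924, 1074 and 1002, with no overlap (adjusted p = 2.63e-08).

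Genes of DNA synthesis fell or did not pass: 13 of 30 replication genes were lower and none higher, with a median of -0.29. POLA1 and PRIM1, the polymerase and the primase that start new strands, fell 2.42-fold and 2.3-fold. POLA1 gave 1020.3, 1134 and 940.2 with doxorubicin and 2649, 2353, 2329, 2476 and 2658 with vehicle (-1.28 ± 0.14, adjusted p = 3.35e-10), and no array of 1 group came within the range of the other. POLE2 (-1.20), of the leading-strand polymerase, GINS1 (-0.84), of the replicative helicase, and the clamp PCNA (-0.53) fell as well, and of the MCM subunits MCM6 did (-0.36, adjusted p = 0.00948), though not with a common median, with vehicle replicates 1 and 2 alone or without doxorubicin replicate 3. Cyclin genes of G1 and S moved apart. CCNE2, the cyclin E that opens S phase, fell from 129.6 ± 25.1 to 35 ± 17.8 (adjusted p = 9.39e-06), and E2F2, a factor that drives S-phase genes, was under the floor on all 3 doxorubicin arrays (-1.64, a change that did not pass with a floor of 32). CCND2, a cyclin of G1, rose by 1.84 (1.30 with a floor of 32, and adjusted p = 0.0535 with a floor of 1) and the inhibitor CDKN1B fell by 1.47. In all, 7 of the 23 genes of this list were lower and 2 higher.

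E2F factors bind promoters of replication genes, and those of POLA1 and MCM6, both lower here, are shown with matches to TTTGGCGC in capitals (GCGCCAAA on the other strand). They are the 250 bases before the start from RefSeq (GRCh38.p14), POLA1 at chrX:24693668-24693917 on the plus strand and MCM6 at chr2:135876444-135876693 on the minus strand.
POLA1: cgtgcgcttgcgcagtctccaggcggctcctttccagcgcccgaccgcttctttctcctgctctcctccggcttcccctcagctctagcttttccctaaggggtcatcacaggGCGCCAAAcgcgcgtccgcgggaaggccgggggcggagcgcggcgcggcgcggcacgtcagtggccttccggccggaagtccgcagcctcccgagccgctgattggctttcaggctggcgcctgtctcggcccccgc
MCM6: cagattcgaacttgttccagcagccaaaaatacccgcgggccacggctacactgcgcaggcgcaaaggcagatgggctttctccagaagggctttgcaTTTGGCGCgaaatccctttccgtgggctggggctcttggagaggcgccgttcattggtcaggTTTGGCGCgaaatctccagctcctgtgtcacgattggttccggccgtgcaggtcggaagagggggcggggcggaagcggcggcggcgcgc
TTTGGCGC or TTTCCCGC, on either strand, was in 13 of the 28 replication genes with a promoter in the table and in 7 of the 13 that fell, against 2.31% of all promoters.

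Mitosis genes were higher or did not pass. On day 3, 9 of 29 were higher with doxorubicin and none lower (median 0.18), beside 11.5% and 13.2% of all genes, and 1 was lower with plate part as a block. AURKA, the centrosomal kinase (chr20:56369390-56392215), gave 11303, 11628 and 10878 against 5436, 6186, 7434, 6766 and 7518 (0.77 ± 0.13, adjusted p = 8.59e-06). The kinetochore motor CENPE rose by 0.82, the cytokinesis kinesin KIF20A by 0.73 and UBE2C, the ubiquitin-conjugating enzyme of the anaphase-promoting complex, by 0.59. None of the 4 had an overlap between groups, but neither did 1299 of all 1370 genes that passed as higher. At 24 h the same dose had left the list lower (median -0.39 against vehicle of that time). The change on day 3 was higher than that at 24 h for 17 of the 29 genes and lower for none, beside 5.23% of all genes higher and 6.11% lower in this difference. With only the vehicle arrays from the doxorubicin part of the plate at both times 15 were higher, and with a common median 13. For KIF20A the change went from -0.81 at 24 h to 0.73 on day 3, a difference of 1.54 ± 0.18 (limma adjusted p = 2.15e-08), for CDC20, the activator of that complex, from -0.58 to 0.46, and for PLK1, the polo-like kinase, from -1.22 to 0.16, where the day 3 value itself did not pass. The letters TTTGAA of the CHR element, through which many mitosis genes are controlled, were in 13 of the 22 with a promoter in the table, against 15.4% of all promoters.

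**Figure D3:**
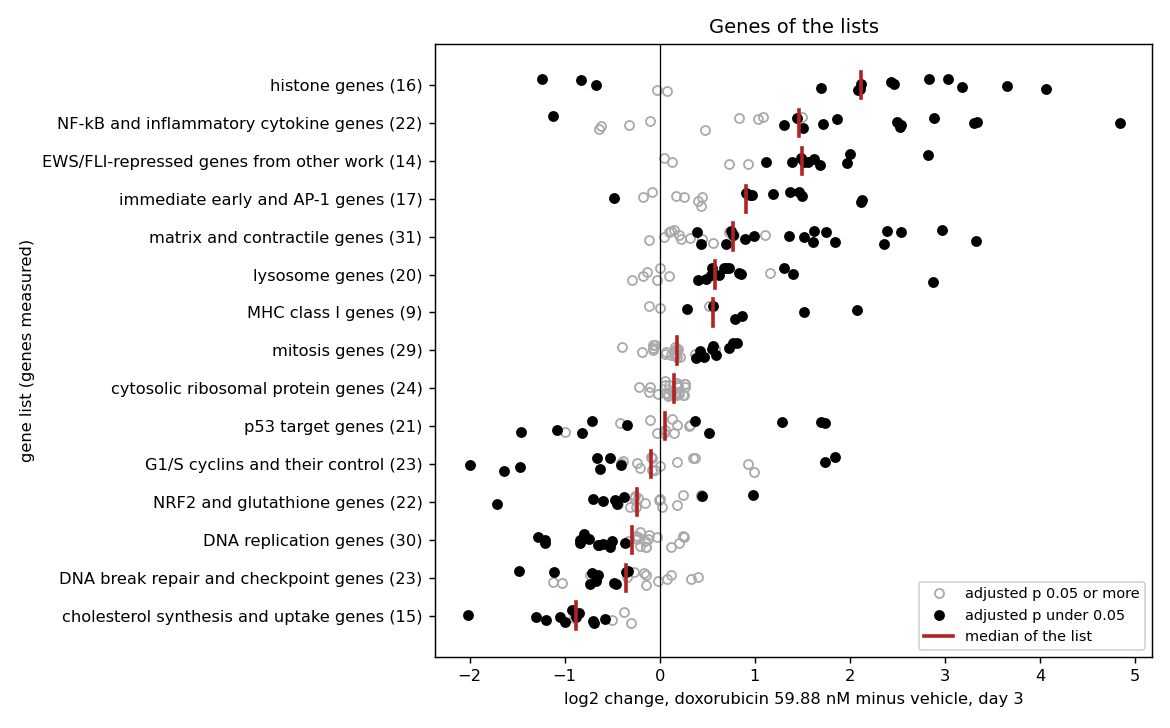
Log2 change (doxorubicin 59.88 nM minus vehicle, day 3) of each measured gene of 15 lists, 1 point per gene, filled where the adjusted p is under 0.05, with the median of each list as a red bar. The medians run from 2.11 for the shorter histone list of 16 genes down to -0.88 for cholesterol synthesis and uptake, with mitosis at 0.18 and replication at -0.29. The median of the 63 histone genes, not drawn here, was 0.48.

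Of 22 genes of NF-κB signalling and its cytokines 12 were higher, 1 lower and 9 not called, with a median of 1.47, beside 11.5% higher and 13.2% lower of all genes. With vehicle replicates 1 and 2 alone 9 were higher, and 7 of the 22 had both group means under a signal of 100. Next to PTX3 the cytokine IL1B (chr2:112829751-112836779) went from signals of 110.2, 99.5, 138, 97.6 and 98.5 to 1067, 1129.6 and 1008 (3.31 ± 0.24, adjusted p = 3.27e-16), and IL11, a cytokine of the IL-6 family, rose 10.1-fold. Of the chemokines that call neutrophils, CXCL8 rose from 419 ± 96.1 (SD, n = 5) to 2394 ± 392 (SD, n = 3) and CXCL1 from 13.5 ± 9.49 to 113 ± 13.3 (2.88 on the log2 scale, or 1.82 with a floor of 32). CCL20 rose too, by 2.53 (0.85 with a floor of 32 and 4.82 with a floor of 1), and the adhesion receptor ICAM1 by 2.50. The subunits of the factor did not move as one: RELB rose by 1.50 (adjusted p = 0.0282), REL fell by 1.12 (adjusted p = 0.0103), and NFKB1 (-0.32, adjusted p = 0.418) and NFKB2 (-0.64, adjusted p = 0.559) did not pass. The inhibitor TNFAIP3 rose by 1.31 (adjusted p = 0.0128), while NFKBIA (0.48) had an adjusted p of 0.0685. RELB and TNFAIP3 did not pass with vehicle replicates 1 and 2 alone, nor RELB with plate part as a block or without doxorubicin replicate 2 or 3 or vehicle replicate 5 or 6, nor REL and TNFAIP3 without doxorubicin replicate 1.

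The promoters of PTX3 and CXCL1 carry a match to the kappa B motif (searched on both strands by its 10-letter consensus), in capitals below with the overlapping match of the other strand included. The sequences are the 250 bases before the start from RefSeq (GRCh38.p14), on the plus strand, at chr3:157436600-157436849 for PTX3 and chr4:73869143-73869392 for CXCL1.
PTX3: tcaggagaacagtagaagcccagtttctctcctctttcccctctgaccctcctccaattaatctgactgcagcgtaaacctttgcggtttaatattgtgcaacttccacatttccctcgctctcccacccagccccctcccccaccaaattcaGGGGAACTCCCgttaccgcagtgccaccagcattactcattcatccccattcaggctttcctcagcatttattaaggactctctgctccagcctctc
CXCL1: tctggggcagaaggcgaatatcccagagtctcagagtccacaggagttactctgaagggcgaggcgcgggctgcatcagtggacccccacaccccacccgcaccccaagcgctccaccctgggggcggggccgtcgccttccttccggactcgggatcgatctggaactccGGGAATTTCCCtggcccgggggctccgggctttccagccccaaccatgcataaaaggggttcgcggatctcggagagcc
The motif was in 11 of the 19 genes of the list with a promoter in the table, in 5 of the 12 of these that changed (CCL20, CXCL1, PTX3, REL and TNFAIP3) and in 5.72% of all promoters.

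Immediate early genes, which answer signals within minutes and include the AP-1 subunits, rose in 9 of 17 cases, with 1 fall. FOS gave 1913, 2025 and 1715 against 612, 407, 313, 321 and 584 (2.13 ± 0.43, adjusted p = 0.000107). JUN rose by 1.46 (adjusted p = 2.93e-06), but its groups overlapped, since doxorubicin replicate 3 (1012) lay under vehicle replicate 1 (1240.4). With vehicle replicates 1 and 2 alone its rise was 0.88. EGR4 rose by 2.12 (1.31 with a floor of 32) and FOSL1 by 1.37 (0.79 with those 2 vehicle arrays), and FOSB (1.49, adjusted p = 0.0166) did not pass with vehicle replicates 1 and 2 alone or without doxorubicin replicate 2. EGR1 fell by 0.48 (adjusted p = 0.00897) but did not pass with vehicle replicates 1 and 2 alone (adjusted p = 0.122) or with plate part as a block (adjusted p = 0.123), where none of the 17 was lower. Of 25 interferon-stimulated genes 5 rose, among them IFI6 (2.20), OAS1 (2.38) and the RNA sensor RIGI (1.61), and IFIT5 fell. OAS1 was dim, with 3 vehicle signals under the floor (1.29 with a floor of 32), and did not pass with vehicle replicates 1 and 2 alone. Of 9 MHC class I genes, which present peptides to T cells, 6 rose and none fell. HLA-B went from 160.2 ± 30.8 to 675 ± 131 (2.07 ± 0.28, adjusted p = 4.45e-08) and HLA-C rose by 1.52, while the light chain B2M rose by 0.28, a call that ended with a common median and without doxorubicin replicate 2. These genes are alike in sequence and can share probes.

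Genes of the extracellular matrix and of contraction were higher in 18 of 31 cases and lower in none (median 0.77), beside 11.5% and 13.2% of all genes, and 15 were higher with plate part as a block and 13 with vehicle replicates 1 and 2 alone. MMP3, a matrix protease (chr11:102835801-102843609), gave 3659, 2390.1 and 2621 with doxorubicin and 382, 242, 282, 263 and 264 with vehicle (3.33 ± 0.32, adjusted p = 3.83e-12). The fibrillar collagen genes COL11A1, COL3A1, COL1A1 and COL5A1 rose by 2.96, 2.54, 2.36 and 1.84, and the thrombospondin THBS2 by 2.39 (1.16 with a floor of 32 and 2.95 with a floor of 1). THBS1 (1.63, adjusted p = 0.00327) did not pass with vehicle replicates 1 and 2 alone (0.66, adjusted p = 0.464), with plate part as a block (1.07, adjusted p = 0.0628) or with a floor of 1. COL3A1 was even between doxorubicin arrays (394, 401 and 405) and above all vehicle arrays (50.4 to 134). Lysosome genes rose in 13 of 20 cases, with none lower and smaller changes (median 0.59). The cathepsins CTSL, CTSK and CTSB rose by 1.40, 1.31 and 0.70. GPNMB, a membrane glycoprotein that rises when lysosomes are stressed, went from 82.4 ± 8.76 to 605 ± 67.1, and NPC1, which exports cholesterol from the lysosome, rose 1.81-fold. GLB1, the lysosomal β-galactosidase, stood at 952 ± 123 and 1071 ± 97.2 (adjusted p = 0.73).

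Cholesterol genes had the largest share of falls among the lists: 11 of 15 were lower and none higher (median -0.88). They span the pathway, from HMGCS1 (-1.05) and MVK (-1.30) at its start, through FDPS (-0.69), IDI1 (-0.57) and LSS (-0.70), to CYP51A1, EBP (-0.92) and DHCR7 (-1.20) at its end, with the sterol sensor INSIG1 (-0.85), whose call ended with plate part as a block and without doxorubicin replicate 2. DHCR7 gave 1358, 1336 and 1232 with doxorubicin against 2851, 3258, 2961, 2820.4 and 3109, and MVK 102, 115 and 83.4 against 257, 232, 227, 275 and 233, both without overlap (adjusted p = 5.21e-08 and 7.56e-06). SC5D (-2.02, or -1.08 with a floor of 32) was dim and did not pass without doxorubicin replicate 3. At 24 h the median of the list was already -0.63, and the day 3 change was lower than the 24 h change for 4 of the 15, CYP51A1 among them (-1.16 ± 0.21, adjusted p = 5.96e-05). Of all genes 6.11% were lower in this difference. The count was 3 of 15 with only the vehicle arrays from the doxorubicin part of the plate at both times, and 3 with a common median.

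Most lists of stress, drug handling and metabolism held both rises and falls. CBR3, a carbonyl reductase that reduces anthracyclines, was the only riser of 15 genes of anthracycline efflux and reduction, with signals of 603, 461 and 700.4 against 133, 85.9, 105, 131 and 112 (2.37 ± 0.19, adjusted p = 2.23e-14), while NQO2 fell by 0.75 and AKR1C3 by 0.38 (adjusted p = 0.0301, not passing with a common median or without any 1 of doxorubicin replicates 2 and 3 and vehicle replicates 1 and 2). Of 22 NRF2 and glutathione genes 6 fell, GSR, the glutathione reductase, the furthest (-1.71), and 2 rose (1 with vehicle replicates 1 and 2 alone). Of 10 iron genes 3 fell, SLC11A2, SLC39A14 and ACO1, of which SLC11A2 alone passed with vehicle replicates 1 and 2 alone. The ferritin chain FTL was 0.30 higher (adjusted p = 0.032), a call that ended with those 2 vehicle arrays, with a common median and without any 1 of doxorubicin replicates 1 and 3 and vehicle replicates 1 and 6. The inducible HSP70 genes HSPA1A and HSPA1B fell by 1.33 and 1.67 and the small heat shock protein genes HSPB1 and HSPB8 rose by 0.54 and 1.36. DDIT3, the CHOP factor of the unfolded protein response, rose 3.04-fold while XBP1 fell 2.22-fold. BCL2 fell from 1558 ± 132 to 729.6 ± 67.9 and BNIP3 by 1.18, and BCL2A1, an NF-κB target that blocks death, rose by 2.15. None of 24 ribosomal protein genes passed (median 0.15), and 2 of 17 ribosome biogenesis genes fell, UBTF and NAT10, or 8 with plate part as a block. In the glycolysis and hypoxia list 6 of 22 fell, HK2 and PFKP among them, and ADM, the vasodilator adrenomedullin, rose from 234 ± 103 to 2001 ± 144. Neuronal genes went both ways, with 6 of 21 higher and 2 lower. The neuropeptide gene NPY gave 2522, 2168 and 2179 against 257, 258, 195, 166 and 196 (3.43 ± 0.16, adjusted p = 2.65e-24), and ENO2, the neuronal enolase, fell from 1065 ± 205 to 319.6 ± 18.7.

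The study lists probe sets that change when EWS/FLI is knocked down, chosen on other arrays. Of 66 probe sets listed as higher after EWS/FLI knockdown, 29 were higher with doxorubicin and 2 lower, beside 9.03% and 11.1% of all probe sets. With vehicle replicates 1 and 2 alone 24 were higher and 1 lower. The median change of the 66 was 0.46. Their mean log2 signal was 8.36, 8.39 and 8.32 on the doxorubicin arrays and 7.80, 7.59, 7.39, 7.40 and 7.61 on the vehicle arrays, so that the groups were apart by more than their spread. Of 77 probe sets listed as lower after knockdown, 15 were lower and 20 higher (median 0.03), a balance that turned to 14 lower and 12 higher with vehicle replicates 1 and 2 alone. The mean log2 signal of the 77 was 9.48 ± 0.0802 with doxorubicin (SD, n = 3) and 9.46 ± 0.109 with vehicle (SD, n = 5). Among the 66, next to PTX3, HSD17B2 (3.27), NPAS2 (3.11) and GEM (2.62) rose furthest. HSD17B2, a steroid dehydrogenase, gave 320.3, 396 and 321 against 57.1, 55, 21.2, 34.5 and 24.8 (adjusted p = 7.78e-14). Among the 77, SLC68A1 (-2.50, or -1.49 with a floor of 32), NOL4 (-1.82), GSR (-1.71), HOOK1 (-1.56) and SLC24A3 (-1.44) fell. CES1, a carboxylesterase, rose 3.58-fold and EPHB3, a receptor of ephrins, 3.13-fold. In lists from other work, 10 of 14 EWS/FLI-repressed genes (8 with vehicle replicates 1 and 2 alone) rose and none fell (median 1.5), IGFBP3 by 2.82, the Notch ligand JAG1 by 2.00 and the hyaluronan receptor CD44 by 1.96. Of 18 EWS/FLI-activated genes 5 rose, FCGRT, UPP1 and IGF1 among them, and 1 fell, BCL11B, whose call ended with plate part as a block, beside 11.5% higher and 13.2% lower of all genes. In the study's small screening signature 5 of 7 genes up with knockdown rose and 3 of 6 genes down with knockdown, FCGRT, PPP1R1A and CDH12, rose as well. CDH12 and IGF1 did not pass with vehicle replicates 1 and 2 alone, and PPP1R1A did not without any 1 of the 3 doxorubicin arrays or vehicle replicate 4. EWSR1, read by a probe set that need not see the fusion, was at 3668 ± 141 and 4443 ± 437 (-0.27, adjusted p = 0.0475, not passing with a common median or without any 1 doxorubicin array or vehicle replicate 1, 2, 5 or 6), and FLI1 at 2563 ± 162 and 3044 ± 449 (-0.24, adjusted p = 0.389).

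**Figure D4:**
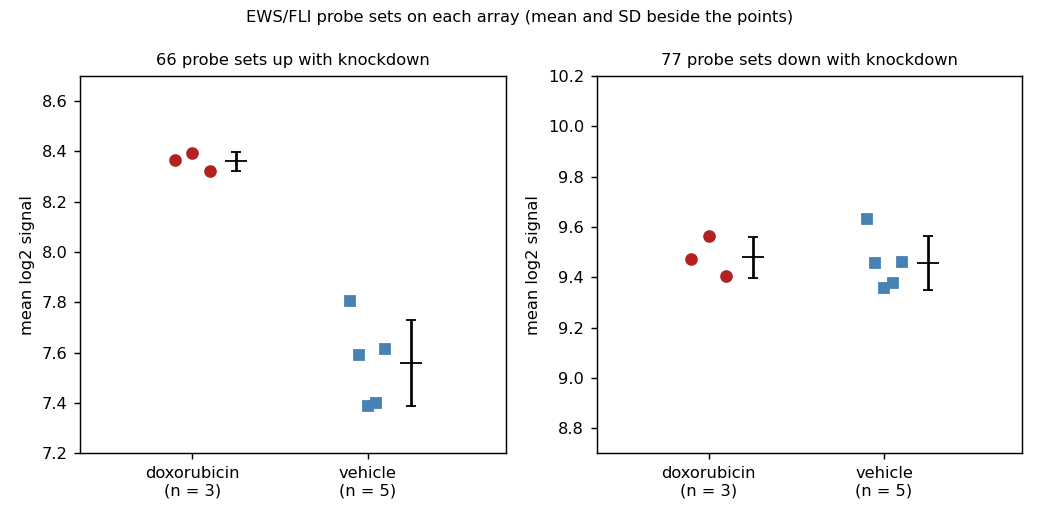
Mean log2 signal of the 66 probe sets higher (left) and the 77 lower (right) after EWS/FLI knockdown on each day 3 array, with the mean and SD of the group beside the points. The 3 doxorubicin arrays lie at 8.32 to 8.39 on the left, above vehicle at 7.39 to 7.80, and among the vehicle arrays on the right.

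None of 6 Ewing cell markers measured passed the test, and their summed signal was 29757 to 31164 with doxorubicin and 27449 to 29908 with vehicle. NKX2-2, a nuclear marker of Ewing sarcoma, gave 4273 ± 189 and 4864 ± 242 (adjusted p = 0.378). Of 12 blood cell markers, PTPRC alone passed (43.2, 45.8 and 42 against 0.651 to 12.1), every marker was under 100 on all doxorubicin arrays, and their sum was 152 to 216 against 80.4 to 346. Of 9 epithelial markers KRT8 and KRT18, which A673 cells also make, rose by 1.48 and 0.83 and carried the sum from 12267 to 14079 up to 25293 to 27057, while the other 7, KRT5 and KRT14 among them, were under 100 on every array of both groups. Of 9 fibroblast and muscle markers POSTN (2.07) and THY1 (1.06) rose and DCN fell (-0.79, not passing with vehicle replicates 1 and 2 alone), with sums of 10325 to 10887 and 9349.9 to 10725. In bulk RNA of a culture, a change in the share of cells and a change per cell cannot be told apart.

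Doxorubicin at 119.76 nM was the other dose of the same day. Between the doses 288 probe sets passed (1.3%), 144 higher and 144 lower at 119.76 nM, a count that ran from 136 to 143 when 1 array at 59.88 nM was left out. Of the 5 largest falls with dose, 4 were in genes that had risen at 59.88 nM. Both comparisons use the same 3 arrays at 59.88 nM with opposite sign, so genes that read high on them tend towards both. DLK1, a Notch-related surface protein, was at 321 ± 81.7 with vehicle, 2911 ± 231 at 59.88 nM (SD, n = 3) and 649.8 ± 136 at 119.76 nM (SD, n = 3), a difference of -2.18 ± 0.19 between the doses (limma adjusted p = 7.35e-12). KRTAP4-7 (-2.06), S100P (-1.75) and SELENOP (-2.25) followed the same order, SELENOP not passing without doxorubicin replicate 2. ACTN2, a muscle actinin, was also lower at 119.76 nM, by 1.73. Higher at 119.76 nM were NPPB, a natriuretic peptide (34 ± 21.9 and 201 ± 7.2, 2.76 ± 0.54, adjusted p = 0.0017), and TYRP1, a pigment enzyme (218 ± 19.7 and 1175 ± 193, 2.42), together with XAB2 (1.70), ATN1 (1.55) and GDF1 (1.53). Of the largest rises CLDN5 (-1.98, adjusted p = 0.106) and PTX3 (adjusted p = 1) did not pass between the doses. None of 16 genes of the histone list, of 29 mitosis genes or of 30 replication genes differed between the doses at this threshold. Of all 11882 genes 100 were higher and 99 lower, a share at which lists of this size would hold few or none.

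ARA-C, a cytidine analogue that stops DNA synthesis, was set beside doxorubicin at the EC50 of each on day 3 (0.17 µM and 59.88 nM), as was puromycin (0.09 µM), which ends translation early. These comparisons share the 3 doxorubicin arrays with the comparison against vehicle. Between ARA-C and doxorubicin 2078 probe sets differed (9.35%), 1562 higher with ARA-C and 516 lower. Leaving out ARA-C replicate 3, an array with raised low signals, gave 1121, and leaving out 1 doxorubicin array 1284 to 1333. The median of all probe sets was 0.24 higher with ARA-C and the share higher among those that passed went from 75.2% to 24.3% with arrays set to a common median. Each ARA-C difference is therefore followed by its common-median value. CER1 stood at 360.2 ± 70.6 with ARA-C (SD, n = 3, against 4.74 ± 3.64 with doxorubicin), 5.15 higher (adjusted p = 7.31e-11, and 4.84 with a common median, adjusted p = 6.73e-11), and RAC3 was 3.13 higher (2.82). NUPR1 (3.36, 3.05), RENBP (3.32, 3.01) and SLC46A3 (3.13, 2.82) were higher with ARA-C too. Lower with ARA-C were H3C4 (-3.20, -3.52), BDNF (-3.02, -3.33), PTX3 (-2.77, -3.08), the sarcomere gene TTN (-2.74, -3.05) and the factor TFAP2C (-2.72, -3.03). Of the 63 histone genes 20 were lower with ARA-C than with doxorubicin and 4 higher, beside 2.99% and 8.43% of all genes, and with a common median 24 were lower and 1 higher, beside 10.7% and 3.37%. In H2B 10 of 15 genes were lower and none higher with either scaling. The 2 largest of these differences, in H2BC9 and H2BC8, were -2.60 and -2.20 (-2.91 and -2.51). H1-10, which doxorubicin had lowered, was 1.33 higher with ARA-C (1.02), and H4C3 1.29 higher (0.98), which with a common median did not pass (adjusted p = 0.0801).

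Between puromycin and doxorubicin 3577 probe sets differed (16.1%), 1512 higher with puromycin and 2065 lower, and the share higher went from 42.3% to 67.7% with a common median. CLDN5 was at 7.03 ± 7.56 with puromycin (SD, n = 3), under the floor on average, and 1215 ± 69.1 with doxorubicin, a difference of -6.71 (adjusted p = 1.75e-12, and -6.47 with a common median, adjusted p = 2.78e-11). IGFBP5 (-5.65), TM4SF1 (-5.44), S100A10 (-5.18) and IL11 (-5.04) were lower with puromycin as well, with common-median values of -5.41, -5.20, -4.95 and -4.80. Higher with puromycin were CER1 (4.63), RAC3 (3.18), RIBC2 (2.83), RNFT2 (2.76) and the HSP70 gene HSPA1L (2.65), all of which doxorubicin had lowered.

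Many of the changes described above were larger on day 3 than at 24 h. The change on day 3 differed from the change at 24 h for 2001 probe sets (9.01%), 916 higher and 1085 lower on day 3. With only the vehicle arrays from the doxorubicin part of the plate at both times, 970 differed. CLDN5 changed by 0.09 at 24 h and 4.99 on day 3 (difference 4.90 ± 0.79, limma adjusted p = 1.12e-05), and TM4SF1 (4.49), UCP1 (4.03), IGFBP5 (4.01) and APOE (3.96) differed almost as much. APOE, a lipid carrier protein, was at 124 ± 27.6 and 103 ± 66.7 at 24 h (vehicle, n = 6, and doxorubicin, n = 3) and at 137 ± 42.5 and 1449 ± 59.4 on day 3. RIBC2 (-2.69), PLA2G3 (-2.50), the S-phase repressor E2F8 (-2.38), ZCCHC2 (-2.33) and H4C3 (-2.29) fell later than 24 h. Of the 20 largest changes of day 3, which were chosen for their size that day, CER1 and ALDOC did not pass in this difference, and CER1 had already fallen by 4.84 at 24 h. Of the histone list 11 of 16 genes had a higher change on day 3 than at 24 h and none a lower one.

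Between day 3 and day 5, 3089 probe sets differed in their change (13.9%), 509 higher and 2580 lower on day 5. Here the median of all probe sets was -0.18 and the share higher went from 16.5% to 51.0% with a common median. With only the vehicle arrays from the doxorubicin part of the plate on both days, the count was 651. TM4SF1 went on rising, from a change of 4.29 to 7.47 (3.18, adjusted p = 0.00179), with S100A10 (1.65), whereas the change of ZBTB16 was smaller on day 5 (-1.93). The gene of the vasoactive peptide urotensin II, UTS2, rose from 2059 ± 244 on day 3 to 8046 ± 176 on day 5 with doxorubicin (SD, n = 3 each). Its change against vehicle was 3.49 higher on day 5, a difference that also takes in a vehicle level lower on day 5 than on day 3. The changes of DHRS2 (3.92), FABP4 (3.78), SMR3B (3.60) and HTN1 (3.47) were higher on day 5 too. The lowest differences, in SLC22A17 (-3.83), ASIC1 (-3.81), RASL12 (-3.77), SLC2A10 (-3.53) and SYNGR3 (-3.49), stood beside vehicle levels that were higher on day 5 than on day 3, as for ASIC1 with 234 ± 144 (SD, n = 6) against 33.3 ± 11.9 (SD, n = 5). ASIC1, SLC2A10 and SYNGR3 did not pass with only the vehicle arrays from the doxorubicin part of the plate on both days. ALDOC, with a difference of -3.17, had a vehicle signal of 1593 ± 974 that day.

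**Figure D5:**
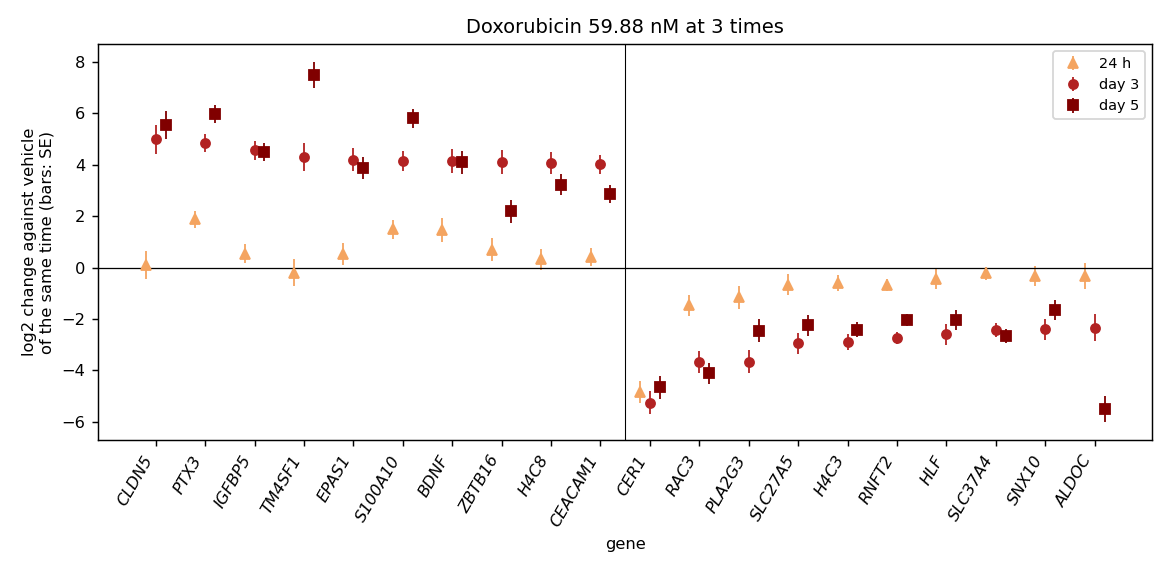
Log2 change against vehicle of the same time (points with SE bars from the fit) at 24 h, day 3 and day 5 of doxorubicin 59.88 nM, for the 10 largest rises and 10 largest falls of day 3. CLDN5 lies at 0.09 at 24 h and 4.99 on day 3, CER1 is near its day 3 value at 24 h, and TM4SF1 reaches 7.47 on day 5.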

How the data were processed

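RNA of A673 cells was profiled on Affymetrix high-throughput expression arrays, and the authors deposited MAS5 intensity values, linear and scaled so that arrays share a similar mean (795.76 to 1087.5 over the 68 arrays). The MAS5 version, detection calls and cDNA priming are not given in the sources used here. Of 22930 probe sets, 715 controls were left out. Signals were floored at 10 and set on the log2 scale, so falls to the floor are understated. One limma 3.58.1 fit (R 4.3.3) of 21 group means over 67 arrays gave all contrasts, with an intensity trend (residual df 46, prior df 8.89 at the median) and Benjamini-Hochberg adjustment over 22215 probe sets at 0.05. The array left out, puromycin EC50 day 5 replicate 3, carried blood transcripts. Changes are log2 differences with their SE. A gene takes its probe set of highest mean log2 signal over the 8 arrays, among 19230 with exactly 1 symbol. Coordinates and promoters are those of RefSeq (GRCh38.p14).

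The genes named are the 10 largest rises and falls among called genes with separate groups and a mean signal of at least 100, up to 4 called members of each list, the EWS/FLI genes furthest each way, and the 5 furthest each way in the other contrasts. Further members of a list were named after their values were seen. The members and lists were chosen with earlier results of these data known. Vehicle replicates 1 and 2 shared plate rows A-F with doxorubicin, and 4, 5 and 6 lay in rows G-H. The fit with replicates 1 and 2 alone also left out the vehicle arrays of rows G-H at 24 h and on day 5. Alternatives were other floors, a cap, normalizations and filters, plate part or replicate number as a block, other array sets and leaving out each array. On simulated data with 50 changed probe sets per size, the fit recovered 30% of log2 changes of 0.5, 78% of 1, 96% of 2 and 100% of 3. These changes were planted in brighter probe sets only, with independent normal noise and in a far smaller share of probe sets than passed here. The rates therefore do not cover dim genes. Signal over background and the number of arrays limit the precision.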

Additional observations from a re-analysis of the deposited data

Results flagged for a closer look

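Among the 20 largest changes, 2 had a vehicle array that stood apart from the other 4, where chance alone sets off about 1 in 20 groups. For BDNF the gap over the range of the vehicle arrays was 1.0, since 4 arrays lay at the floor and replicate 2 above it. For HLF it was 0.759, with replicate 2 (188) above the others (115 to 129.8).

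The change differed between day 3 and 24 h in these genes, each tested as the difference of the changes in the limma fit. Larger rises on day 3 were found in CLDN5 (4.90), TM4SF1 (4.49), UCP1 (4.03), IGFBP5 (4.01), APOE (3.96), H4C8 (3.74), EPAS1 (3.67), CEACAM1 (3.62), ZBTB16 (3.42), PTX3 (2.96), S100A10 (2.66) and BDNF (2.66). Larger falls were found in RIBC2 (-2.69), PLA2G3 (-2.50), E2F8 (-2.38), ZCCHC2 (-2.33), SLC27A5 (-2.29), H4C3 (-2.29), RAC3 (-2.21), SLC37A4 (-2.20), HLF (-2.15), SNX10 (-2.06) and RNFT2 (-2.05).

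The change on day 5 differed from that on day 3, by the same test, upwards in DHRS2 (3.92), FABP4 (3.78), SMR3B (3.60), UTS2 (3.49), HTN1 (3.47), TM4SF1 (3.18) and S100A10 (1.65). It differed downwards in SLC22A17 (-3.83), ASIC1 (-3.81), RASL12 (-3.77), SLC2A10 (-3.53), SYNGR3 (-3.49), ALDOC (-3.17) and ZBTB16 (-1.93).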

How the results depend on the processing

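Against vehicle, 4473 probe sets (2006 higher, 2467 lower) became 2378 (1181 and 1197) when the array with blood transcripts was kept, since it entered the shared estimate of the spread. With vehicle replicates 1 and 2 alone 1299 were higher, and leaving out 1 array gave 3254 to 4218 in all, 1551 to 1999 higher and 1649 to 2353 lower. No call changed its direction. Between the doses 288 became 582 with quantile normalization, 475 with a floor of 32, 25 with all 68 arrays, 511 with all vehicle arrays of rows G-H left out and 136 to 143 without 1 array. For ARA-C, 2078 became 4417 with a floor of 32, 640 with all 68 arrays, 1284 to 1333 without 1 doxorubicin array and 1121 without ARA-C replicate 3, an array with raised low signals (an alternative chosen after seeing the data). Puromycin went from 3577 to 1867 with all 68 arrays. Day 5 minus day 3 went from 3089 to 1831 with a common median, 1029 with all 68 arrays and 651 with only the vehicle arrays of rows A-F on both days. Day 3 minus 24 h went from 2001 to 710 with all 68 arrays and to 970 with only the vehicle arrays of rows A-F at both times. Apart from the share of arrays, filters and prior estimates that each setting changes by construction, the cause was not tested. Only replicate numbers 1 and 2 are shared by both groups, and they share only a number. With the replicate block 4112 probe sets passed (1812 higher, 2300 lower), 334 between doses, 2065 for ARA-C, 3544 for puromycin, 3196 for day 5 minus day 3 and 2000 for day 3 minus 24 h. Of 197 results for named genes, 147 kept their direction and side of the threshold under every alternative run and 50 changed side under at least 1. Leaving out 1 array moved the ACTB difference from 0.594 to between 0.355 and 0.812 and the GAPDH difference from 0.225 to between 0.187 and 0.299. Both differences share the small number of arrays, and no floor was applied to these ratios. Of the signals of the probe sets tested, 18.3% to 18.6% lay under the floor with doxorubicin and 20.7% to 21.5% with vehicle.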
